A study of Mus musculus with 12 samples.

Results

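The cells described here are endothelial cells of mouse white adipose tissue with transcripts of Sox17, Gja4 or Gja5, genes known from the lining of arteries. They were picked by their counts of unique molecular identifiers (UMIs, each standing for 1 captured RNA molecule). A barcode was kept at 700 to 22000 UMIs, 200 to 6000 genes and under 25% mitochondrial UMIs, and was then taken if it held at least 1 UMI of Cdh5, at least 2 UMIs of Gja4, Gja5 and Sox17 together, and 0 UMIs of Ackr1, Prox1, Ptprc and Pdgfra. The gate found 2540 of 126095 kept cells (139755 barcodes in all) and of 8670 endothelial cells, defined as cells with Cdh5 and without Ptprc and Pdgfra. These 2540 are called the gated cells below.

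The 12 libraries were 10x Genomics 3-prime libraries of the stromal vascular fraction (SVF, the cells left after collagenase digestion once floating adipocytes are removed) of epididymal (eWAT) and inguinal (iWAT) fat of male mice aged 12 weeks. In each depot 2 libraries came from C57BL/6J mice given vehicle (WT-Veh), 2 from Lepob/Lepob mice, which lack functional leptin, given vehicle (ob/ob-Veh), and 2 from Lepob/Lepob mice given rosiglitazone, an agonist of the nuclear receptor PPARγ, at 30 mg/kg by gavage for 3 days (ob/ob-Rosi). The genotype differs from WT in every cell of the animal and the fat came from small biopsies of several places of a depot. The labels call the libraries of a group biological replicates. They do not say whether eWAT and iWAT libraries came from the same mice, and the tests treat all libraries as independent. If mice were shared, tests over both depots count a mouse more than once. No WT mice received rosiglitazone in these libraries.

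Arteries carry blood into a tissue, and their endothelium is kept apart from that of capillaries and veins by Notch signalling and by the transcription factors that act with it. Sox17 is one of these factors, Hey1 is a Notch target, Gja4 and Gja5 encode the gap junction proteins connexin 37 and connexin 40, and Fbln5 encodes a protein of elastic fibres. In fat, the capillary endothelium in turn holds lipoprotein lipase at its surface through Gpihbp1 and moves fatty acids inward with Cd36 and fatty acid binding proteins. In the GRCm38 build used by the files, Sox17 lies on chr1 (4490931 to 4497354, minus strand), Gja4 on chr4 (127311421 to 127314039, minus), Gja5 on chr3 (96904693 to 97077416, plus), Hey1 on chr3 (8663359 to 8667256, minus) and Fbln5 on chr12 (101746565 to 101819055, minus). All counts are of whole genes, so no exon or isoform is told apart.

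Sox17 carried the gate. It was found in 2429 of the 2540 gated cells (95.6%), Gja4 in 707 (27.8%) and Gja5 in 99 (3.90%), and 1770 cells (69.7%) had Sox17 and neither connexin. The share of such Sox17-only cells ran from 56.3% to 84.7% of the gated cells of a library, and the number of Gja5 cells from 0 to 37. Sox17 transcripts are therefore the feature that most of these cells share, and the classic arterial connexin Gja5 had no UMI in nearly all of them, which at this depth does not show that it was not expressed. Since the gate used these 3 genes, their levels in the gated cells are a description and support nothing.

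The gated cells were checked against lists of marker genes, in CPM, the UMIs of a gene per 1000000 UMIs of the cells. The 5 arterial markers summed to 613 to 1769 CPM per library in the gated cells and to 39.6 to 113 in the other blood endothelial cells, the 4248 cells with Cdh5 and 0 UMIs of Sox17, Gja4, Gja5, Ackr1, Prox1, Ptprc and Pdgfra. Of these 5 markers 3 are the genes of the gate, at 0 in the other cells by definition, so the rule fixes this gap. The 8 capillary markers (among them Gpihbp1, Car4, Rgcc and Cd36) summed to 15400 to 24970 CPM in the gated cells, and to 12470 to 20650 in the others. The 10 general endothelial markers reached 9377 to 12120 CPM against 5463 to 8916. The capillary markers were higher in the gated than in the other cells in each library but the iWAT ob/ob-Veh replicate 2 (17600 against 20650 CPM), while the arterial genes Gkn3 and Bmx stayed at or under 2.59 and 17.9 CPM in every library. The set is therefore called by its gate.

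Transcripts of mural cells, the smooth muscle cells and pericytes that wrap vessels, were part of many gated cells. At least 2 UMIs of Myh11, Rgs5, Pdgfrb and Notch3 together were found in 1073 gated cells (42.2%, from 20.3% to 68.6% per library), and in 1.75% to 21.2% of the other blood endothelial cells. Gja4, which pericytes are also known to express, went with them. Rgs5, a pericyte gene, stood at 1221 CPM in the gated cells with a Gja4 UMI and at 296 in those without, and Gja4 stood at 92.4 CPM in all gated cells but at 25.04 in the gated cells under 2 mural UMIs. No doublet caller was run, so a pair of cells under 1 barcode and a cell that expresses both sets of genes cannot be told apart. The gated cells also held more RNA, with a median of 3068.5 to 8017 UMIs per library against 1212 to 2980 in the other blood endothelial cells, and a cell with more UMIs reaches 2 UMIs of the gate genes more easily.

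The gate genes were rare in leukocytes, which should lack them. Among 46103 kept cells with Ptprc, a leukocyte gene, and without Cdh5, at a median of 3048 UMIs, Sox17 was found in 386 (0.837%), Gja4 in 140 (0.304%), Gja5 in 19 (0.0412%) and at least 2 UMIs of the 3 genes in 33 (0.0716%). The gate has a threshold at 2 UMIs, and 907 gated cells (35.7%) had exactly 2. In these cells Hey1 stood at 38.7 CPM, Fbln5 at 88.8, Cdh5 at 1480 and Rgs5 at 466, and in the 1688 cells with 1 UMI, just outside the gate, at 32.4, 76.6, 1450 and 343. The gate thus cuts through a continuous range, in which Hey1 was 16.6 CPM in cells with 0 UMIs of the gate genes and 52.8 in those with 3 or more.

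**Figure D1:**
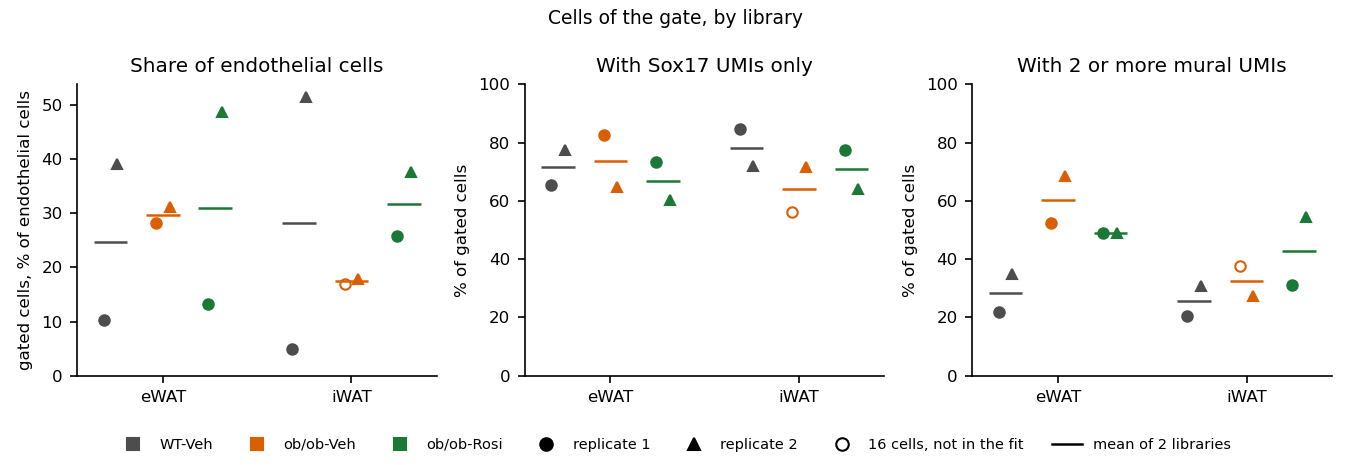
Composition of the gated cells by library: their share of endothelial cells in percent, the share of them with Sox17 as the only gate gene, and the share with at least 2 UMIs of 4 mural genes. Each point is 1 library (circle replicate 1, triangle replicate 2) and lines are means of the 2 libraries; in the first panel the 2 replicates of iWAT WT-Veh are the lowest and the highest library, and Sox17-only cells are the majority in each library.

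Depth and the check of the labels bear on all that follows. The libraries held 20132553 to 92475986 UMIs, and the gated cells 55971 to 3944088 of these per library. Libraries shared 0.108% to 1.05% of the barcodes of the smaller one of a pair, and 1 barcode among gated cells occurred in more than 1 library. Lep, the gene mutated in Lepob, is an adipocyte gene whose transcript the mutation leaves in place. Its presence alone thus does not tell the genotypes apart. Per 100 Adipoq UMIs, 20.1 to 42.5 Lep UMIs were found where the label was WT-Veh and 3.96 to 36.4 where it was ob/ob-Veh, with overlap. In libraries labelled ob/ob-Rosi 141 to 390 were found. What these levels say of the labels was not tested. In addition, transcripts of several PPAR targets were highest in the gated cells of the libraries labelled WT-Veh, as set out below. The macrophage genes Trem2 and Gpnmb, in cells without Cdh5, stood at 674.5 and 525.6 CPM over the WT-Veh libraries. They stood at 34.7 and 72.9 in ob/ob-Veh and at 709 and 615.9 in ob/ob-Rosi. What this says of the labels was not tested either. Whether the labels of the libraries are right could not be settled from these files, and directions are given by label.

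The gated cells were found in all 12 libraries and made up 10.3% and 39.2% of the endothelial cells in eWAT WT-Veh (95% exact binomial intervals 7.15% to 14.2% and 34.1% to 44.4%), 28.3% and 31.2% in ob/ob-Veh (22.4% to 34.6% and 27.2% to 35.5%), and 13.2% and 48.8% in ob/ob-Rosi (9.96% to 17.1% and 45.2% to 52.5%). In iWAT the shares were 5.00% and 51.5% in WT-Veh (3.83% to 6.40% and 48.3% to 54.7%), 17.02% and 17.83% in ob/ob-Veh (10.1% to 26.2% and 14.6% to 21.4%), and 25.8% and 37.6% in ob/ob-Rosi (23.8% to 28.0% and 35.2% to 40.0%). The intervals cover counting error only. In iWAT the replicates of WT-Veh were the lowest and the highest library, in eWAT WT-Veh held the lowest and ob/ob-Rosi the highest, and the groups overlapped in both depots. Replicate 2 had the higher share in each of the 6 groups. A difference between the 3 labels over both depots did not pass the test (exact permutation test within depots, two-sided, p = 0.802 over 8100 arrangements). The mean share differed by -2.92 points between ob/ob-Veh and WT-Veh (p = 0.889) and by 7.80 points between ob/ob-Rosi and ob/ob-Veh (p = 0.389, same exact permutation test, which cannot go below 0.0556 for 2 labels). Single libraries turned the sign of both. The first was 4.99 points in eWAT and -10.8 in iWAT, and ran from -14.6 without the iWAT WT-Veh replicate 1 to 8.71 without its replicate 2, with 4.30 without the eWAT WT-Veh replicate 2 and -10.1 without its replicate 1. The second was 1.32 points in eWAT and 14.3 in iWAT, and was -1.100 without the eWAT ob/ob-Rosi replicate 2 and 16.7 without its replicate 1. Library replicates differ in depth as well, and after thinning of each cell to 2000 UMIs, which left out 2886 shallower endothelial cells, the shares ran from 6.33% to 25.8% (exact permutation p = 0.853).

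Of the 99 gated cells with a Gja5 UMI, those of the 4 libraries tested (11, 12, 37 and 10 cells) carried more transcripts of other arterial genes. Set against gated cells without Gja5 in the 4 libraries that had at least 10 Gja5 cells (a minimum of 20 left 1 library), with the library as a block, 106 of 7471 genes were higher (1.42%) and 84 lower (1.12%) by edgeR's quasi-likelihood test. A gene is called throughout if its Benjamini-Hochberg adjusted p is 0.05 or less and its fold 1.1 or more. The split is on a gene of the gate, within cells the gate had chosen, and the genes tested took no part in it. Without the iWAT ob/ob-Rosi replicate 1, which gave 37 of the cells, 121 genes were called.

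CPM here pool the Gja5 cells and the other gated cells of the 4 fitted libraries. Gkn3, a marker of arterial endothelium in mice, had 13 UMIs in the Gja5 cells (42.6 CPM) and 4 in the rest (0.33 CPM), and so passed the filter on low counts through the Gja5 cells. A gene that passes in this way had to differ, so lists are counted here over the members that reached the limit of the filter, 14.2 CPM, in the cells without Gja5 of each of the 4 libraries, a choice made after seeing the data. Fbln5 stood at 761 against 92.3 CPM (log2 fold change 2.88 ± 0.21 SE, adjusted p = 7.18e-19 in edgeR), and Hey1 at 187 against 45.02 (1.79). Of 15 such arterial genes 11 were higher and 0 lower. Of 17 genes of elastic fibres and basement membrane 4 were higher, such as Eln (elastin) at 577 against 97.6 CPM (2.52), and 5 were lower (Col4a1, Col4a2, Lamc1, Nid1 and Hspg2). Efnb2, the ephrin that marks arteries, was higher by 1.06 at 371 against 140 CPM. Of 10 vasoactive genes 1 was higher, Edn1, endothelin, by 1.98, and 1 lower, the endothelin receptor Ednrb (184 against 384 CPM). Of 20 receptors and other genes of the VEGF, angiopoietin and TGF-beta list 0 were higher and 2 lower, the VEGF receptor Kdr (738 against 1296 CPM) and Nrp2 (52.5 against 193). Some genes were under the limit in the cells without Gja5 of at least 1 library, are not among the genes counted and are given by their levels alone. These include Bmx, a tyrosine kinase of arterial endothelium (75.5 against 2.14 CPM), Clu, the chaperone clusterin (239.5 against 10.02), Lox, which crosslinks elastin (55.8 against 8.46), Vegfc, a VEGF ligand (15 UMIs against 30, or 49.2 CPM against 2.465), and Ace, the angiotensin-converting enzyme (230 against 22.5 CPM). Of Fbln5, Hey1, Eln, Edn1 and Efnb2, Efnb2 alone was not called without the iWAT ob/ob-Rosi replicates 1 or 2 (0.92 and 0.86).

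Of 8 capillary markers 6 were lower in the Gja5 cells, and of 14 lipid uptake genes 5. Aqp1, the water channel, stood at 177 against 1837 CPM (-3.42 ± 0.25, adjusted p = 7.18e-19), Fabp5, a fatty acid binding protein, at 709 against 2331 (-1.497), Gpihbp1 at 2962 against 5452 (-0.71), and the capillary carbonic anhydrase Car4 at 216.5 against 1040.0. Cd36 did not pass the test, at 5481 against 6851 CPM, but was called under 1 alternative of the fit. No capillary marker or lipid uptake gene was higher, and 1 of 16 Notch genes was. Of the arterial list of 24 genes 21 were tested. Of 6 mural genes 1 was higher. That was the smooth muscle gene Tagln (207 against 25.06 CPM). Acta2, another one, was under the limit in cells without Gja5 and stood at 144 against 8.30 CPM, while the pericyte genes Rgs5 (1083 against 597) and Pdgfrb (91.9 against 116) did not pass the test. Rgs5 was called under 2 alternatives of the fit, 1 of which leaves out a library. The part of mural RNA in these values was not tested.

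**Figure D2:**
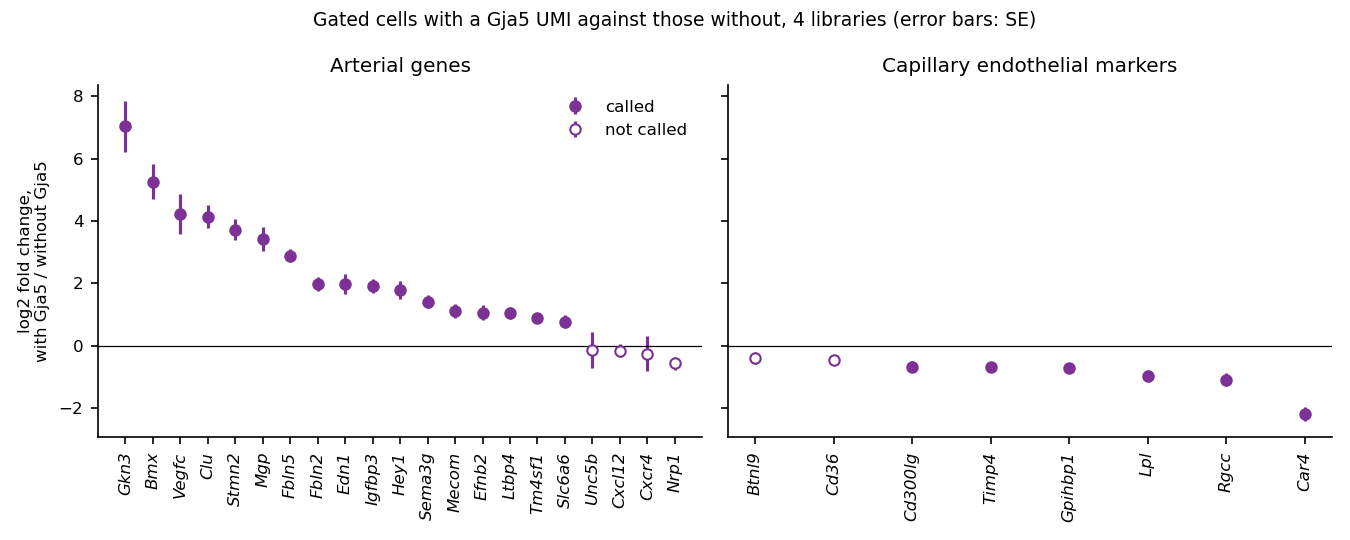
Log2 fold changes (± SE) of arterial genes and capillary markers in gated cells with Gja5 against gated cells without it, from the edgeR fit of 4 libraries; filled points are called and open points are not. Called arterial genes have positive log2 fold changes. Of these 11 reached the limit of the filter in the cells without Gja5, and the others, such as Gkn3, Bmx and Clu, were tested through the Gja5 cells and had to differ. Of the 8 capillary markers 6 are called, with negative log2 fold changes.

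The gated cells as a whole differed from the other blood endothelial cells of their libraries in a large share of genes: 1125 of 7807 were higher (14.4%) and 1140 lower (14.6%) in a fit with the library as a block, in which the genes of the gate were left out. The gate chose cells partly by depth and by its 3 genes, so these values are measures of the same cells and not a test of a cell type. Scaled by library size alone, the split was 1519 higher and 954 lower, and after thinning to 2000 UMIs 169 and 238 genes were called. Hey1 in the gated cells was 16.9 and 34.0 CPM in eWAT WT-Veh, 55.8 and 89.0 in ob/ob-Veh and 28.8 and 47.1 in ob/ob-Rosi, and in the other cells 2.13 and 15.4, 22.0 and 13.8, and 12.3 and 21.0. In every library, those of iWAT too, the gated cells were above the others, and the log2 difference was 1.49 ± 0.15 (adjusted p = 1.37e-08, edgeR). Sema3g, an arterial semaphorin, was higher by 1.12 ± 0.10, Fbln5 by 1.13 ± 0.12, the netrin receptor gene Unc5b by 1.14, Efnb2 by 1.06, and the Notch ligand genes Jag1 and Dll4 by 0.70 and 0.65.

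Genes of pericytes were among those with the largest differences, however, several of them above Hey1. Kcnj8 (1.93 ± 0.18, adjusted p = 3.81e-09), Rgs4 (1.80), Gucy1a1 (1.68), Higd1b (1.61), Notch3 (1.56), Abcc9 (1.56) and, below Hey1, Rgs5 (1.29) are genes of pericytes. In gated cells under 2 mural UMIs, Hey1 was still higher by 1.57, Fbln5 by 1.23, Sema3g by 1.30, Dll4 by 0.76 and Jag1 by 0.42, and Kcnj8, Rgs4 and Gucy1a1 fell under the filter on low counts. By list, 12 of 17 arterial genes were higher and 1 lower (median 0.64, against 0.02 over all genes), 10 of 17 Notch genes were higher and 3 lower, 7 of 8 capillary markers and 9 of 9 endothelial markers were higher, and 9 of 26 PPAR receptors and targets were higher and 0 lower. All 11 macrophage markers and all 8 stromal markers tested were lower, as were 64 of 80 ribosomal protein genes. The macrophage list summed to 1845 to 13070 CPM in the gated cells and 5005 to 20010 in the others.

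For the comparison of labels, UMIs of the gated cells were summed per library and fitted together over both depots for the 11 libraries with at least 20 gated cells. The iWAT ob/ob-Veh replicate 1, with 16 cells, was left out, so that group rests on 1 library in each fold change below; its CPM is still given. The filter on low counts therefore kept a gene that reached its limit in 1 library. A gene near 0 in the libraries of a label passed through those of other labels, so its difference from them was fixed in part. Calls of such genes are descriptions, and the lists below were not recounted without them. With ob/ob-Veh against WT-Veh, averaged over depots, 252 of 10657 genes rose (2.36%) and 223 fell (2.09%). In ob/ob-Rosi, 155 rose (1.45%) and 153 fell (1.44%) relative to ob/ob-Veh, and 139 rose (1.3%) and 165 fell (1.55%) relative to WT-Veh. The 3 comparisons share their libraries pairwise. Counts by list below stand beside these shares of all genes. Scaled by library size alone, the first split was 345 up and 163 down and the second 107 and 217, with the median of all genes shifted to 0.12 and -0.12 on the log2 scale. In gated cells under 2 mural UMIs the totals were 421, 295 and 258 genes. With a gate on at least 2 UMIs of Gja4 and Gja5 alone, without Sox17, they were 19, 11 and 14, and 193 calls of named genes over all comparisons were lost, which is not repeated at each gene.

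These counts rest on single libraries to a large degree. Without the eWAT WT-Veh replicate 2 the first total of 475 was 119, without the eWAT ob/ob-Veh replicates 1 and 2 it was 158 and 96, and without the iWAT WT-Veh replicate 2 it was 155. The second total of 308 was 92 and 65 without these ob/ob-Veh replicates, 473 and 58 without the eWAT ob/ob-Rosi replicates 1 and 2, and 524 and 192 without the iWAT ob/ob-Rosi replicates 1 and 2. The third total of 304 was 63 without the eWAT WT-Veh replicate 2, 151 without the eWAT ob/ob-Rosi replicate 2 and 155 without the iWAT WT-Veh replicate 2.

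Transcripts known from other cell types differed between labels and are given first. Whether they were made in the gated cells was not tested. Cfd, the adipocyte protease adipsin, was 0 and 2.68 CPM in the gated cells of eWAT WT-Veh, 740 and 421 in ob/ob-Veh, and 0 and 0.864 in ob/ob-Rosi. In iWAT it was 0 and 7.86, 214 and 102, and 9.58 and 19.5. The ob/ob-Veh libraries lay above all others in both depots, with a log2 change of 5.80 ± 0.49 against WT-Veh and of -5.99 ± 0.48 in ob/ob-Rosi against ob/ob-Veh. Car3 and Pck1, adipocyte genes too, were also highest in ob/ob-Veh in both depots, with Pck1 at 75.1 and 47.5 CPM in eWAT ob/ob-Veh and 89.3 and 42.6 in iWAT ob/ob-Veh against at most 0.894 elsewhere. Of the 8 adipocyte markers 4 rose with ob/ob-Veh against WT-Veh, and 7 fell and 0 rose with ob/ob-Rosi against ob/ob-Veh. Cfd (at most 7.86 CPM in WT-Veh) and Pck1 passed the filter on low counts through libraries of other labels. Their differences, and the counts that hold such genes, were thus fixed in part. In cells without Cdh5 the same transcripts were rarer, with Cfd at 12.3 CPM over the ob/ob-Veh libraries against 422 in the gated cells, 34.2 times as much, and Pck1 at 1.47 against 53.2.

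Macrophage transcripts went the other way in eWAT. There the macrophage list summed to 13070 and 4979 CPM in WT-Veh, 2576 and 2490 in ob/ob-Veh, and 8089 and 6170 in ob/ob-Rosi. In iWAT its sums were 2559 and 4210, 3412 and 1845, and 3410 and 6050, so the labels overlapped. Lgals3, galectin 3, a gene outside this list, was 1837 and 606 CPM in eWAT WT-Veh, 30.0 and 52.7 in ob/ob-Veh, and 759 and 1049 in ob/ob-Rosi. Values in iWAT were 186 and 157, 0 and 21.3, and 196 and 316. Over all libraries of a label it stood at 285 (WT-Veh), 41.0 (ob/ob-Veh) and 457 CPM (ob/ob-Rosi) in the gated cells and at 3038, 250 and 3511 in cells without Cdh5. Of the 11 macrophage markers tested 6 fell with ob/ob-Veh against WT-Veh, and 7 rose with ob/ob-Rosi against ob/ob-Veh. The mural list summed to 286 and 558 CPM in eWAT WT-Veh, 2381 and 2437 in ob/ob-Veh, and 791 and 1042 in ob/ob-Rosi. In iWAT its sums were 478 and 524, 1108 and 1002, and 611 and 1576. Every ob/ob library, treated or not, thus lay above every WT-Veh library. Rgs5 rose by 2.35 ± 0.33 with ob/ob-Veh against WT-Veh (adjusted p = 0.00179, edgeR). The list of stromal markers, genes of fat progenitors, summed to up to 3895 CPM in iWAT ob/ob-Veh, both libraries of which lay above WT-Veh (891 and 1672) and ob/ob-Rosi (1390 and 2623), and to 1349 to 2115 in eWAT, where the labels overlapped. Of 9 stromal markers 3 rose with ob/ob-Veh against WT-Veh (Dcn, Dpt and Pi16). The part of these transcripts in the results below was not tested. In cells pooled per library, fewer cells of a kind and less RNA per cell cannot be told apart.

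**Figure D3:**
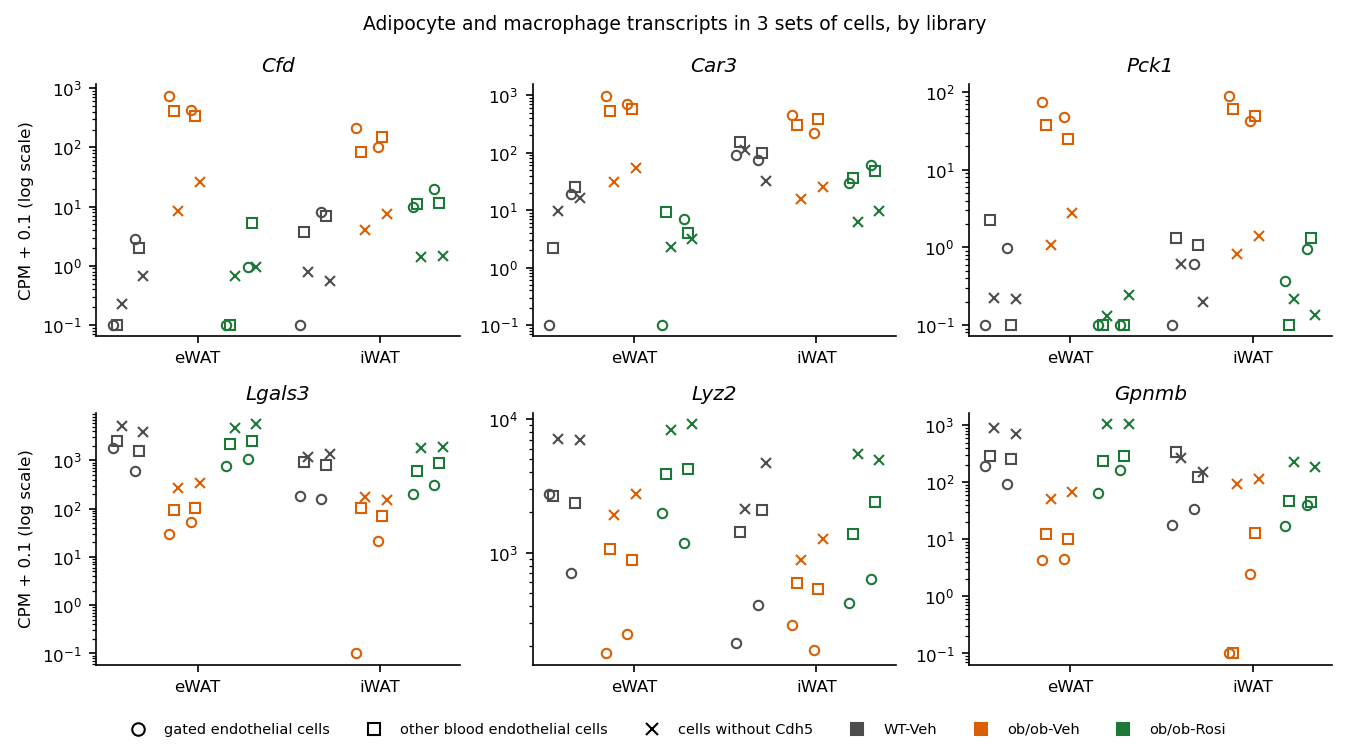
CPM + 0.1 on a log axis for 3 adipocyte genes (Cfd, Car3, Pck1) and 3 macrophage genes (Lgals3, Lyz2, Gpnmb), by library, in the gated cells (circles), other blood endothelial cells (squares) and cells without Cdh5 (crosses), coloured by label. In ob/ob-Veh the adipocyte genes are higher in both endothelial sets than in cells without Cdh5, whereas the macrophage genes of those libraries are highest in cells without Cdh5.

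Lipid handling genes of the gated cells differed by label. Fabp5, which carries fatty acids in the cytosol, was 4499 and 3666 CPM in eWAT WT-Veh, 723 and 569 in ob/ob-Veh, and 1198 and 1024 in ob/ob-Rosi. The iWAT values were 3473 and 4372, 482 and 277, and 1937 and 990. The labels did not overlap in either depot and kept the order WT-Veh, ob/ob-Rosi, ob/ob-Veh. It fell by 3.33 ± 0.31 on the log2 scale with ob/ob-Veh against WT-Veh (adjusted p = 4.84e-05, edgeR) and rose by 1.69 ± 0.28 with ob/ob-Rosi against ob/ob-Veh (adjusted p = 0.00474), while ob/ob-Rosi stayed below WT-Veh by -1.64 ± 0.23 (adjusted p = 0.000834). Its close relative Fabp4, at 23580 to 71980 CPM, did not pass the test in either of the first 2 comparisons (-0.41 and 0.41, adjusted p = 0.326 and 0.332). The second was called (0.61) with the replicate number as a block and at least 10 cells per library.

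Rbp7, a retinol binding protein of fat endothelium, was 4373 and 3729 CPM in eWAT WT-Veh, 2456 and 1750 in ob/ob-Veh, and 1029 and 733 in ob/ob-Rosi. In iWAT it was 4531 and 4735, 1179 and 1066, and 1098 and 512. All WT-Veh libraries lay above all others. It fell with ob/ob-Veh against WT-Veh by 1.62 ± 0.29 (adjusted p = 0.00695, edgeR; not called after thinning, at -1.13) and with ob/ob-Rosi against WT-Veh by 2.35 ± 0.25 (adjusted p = 0.000106). Angptl4, an inhibitor of lipoprotein lipase and a PPAR target, was 1618 and 2286 CPM in eWAT WT-Veh, 755 and 541 in ob/ob-Veh, and 378 and 938 in ob/ob-Rosi. Values in iWAT were 1856 and 2513, 500 and 265, and 305 and 743. The WT-Veh libraries lay above all others, and the ob/ob-Veh and ob/ob-Rosi libraries overlapped. It fell by 2.42 ± 0.40 with ob/ob-Veh against WT-Veh (adjusted p = 0.00412) and by 1.79 ± 0.32 with ob/ob-Rosi against WT-Veh (adjusted p = 0.00465; -1.66 and not called without the eWAT WT-Veh replicate 2).

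Pdk4, the kinase that holds pyruvate back from oxidation and a PPAR target, was 84.2 and 46.5 CPM in eWAT WT-Veh, 27.9 and 20.03 in ob/ob-Veh, and 7.19 and 3.02 in ob/ob-Rosi. The iWAT values were 85.2 and 63.6, 35.7 and 18.9, and 4.66 and 2.83. The 3 labels did not overlap in either depot, and ob/ob-Rosi was the lowest. It fell by 1.72 ± 0.38 with ob/ob-Veh against WT-Veh (adjusted p = 0.0190, edgeR; not called at 3 or more gate UMIs, at -1.69, or without the eWAT ob/ob-Veh replicate 2, at -1.59) and by 2.35 ± 0.46 with ob/ob-Rosi against ob/ob-Veh (adjusted p = 0.0142; -1.91 and not called without the eWAT ob/ob-Rosi replicate 2). Plin2, which coats lipid droplets, stood at 888 to 1660 CPM in WT-Veh and at 179 to 758 in the other labels, and changed by -1.87 ± 0.30 and -1.495 ± 0.25 in ob/ob-Veh and in ob/ob-Rosi relative to WT-Veh (adjusted p = 0.00349 and 0.00319). Lipg, endothelial lipase, stood at 32.2 to 87.8 CPM in WT-Veh and at 2.27 to 4.32 in ob/ob-Rosi, and fell by 3.75 ± 0.46 between them (adjusted p = 0.000269; not called after thinning, at -4.68).

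By list, 8 of 27 PPAR receptors and target genes fell with ob/ob-Veh against WT-Veh and 0 rose (median -0.73, against 0.01 over all genes, of which 2.09% fell). Besides Angptl4, Pdk4 and Plin2 these were Acadl, Hadha, Etfb and Ech1, which oxidise fatty acids, and the mitochondrial carrier Ucp2. Without the eWAT WT-Veh replicate 2, Acadl (-0.98), Hadha (-0.98), Etfb (-1.17), Ech1 (-1.501) and Ucp2 (-1.70) were not called, and without the eWAT ob/ob-Veh replicate 2 Acadl (-1.04), Hadha (-1.04), Ech1 (-1.59) and Ucp2 (-1.72) were not. In ob/ob-Rosi relative to ob/ob-Veh 3 of the 27 fell (Pdk4, Aqp7 and Cidec) and 0 rose, with a median of -0.13. Cidec is also among the adipocyte markers counted above, and whether its transcripts were made in the gated cells was not tested. Aqp7 was not called without the eWAT ob/ob-Veh replicate 2 (-1.42) or the eWAT ob/ob-Rosi replicate 2 (-1.38), nor Cidec without the eWAT ob/ob-Veh replicate 1 (-2.05) or the eWAT ob/ob-Rosi replicate 2 (-2.51). Relative to WT-Veh 10 of the 27 fell and 0 rose (median -0.84), among them Hadhb, at 303 to 498 CPM in WT-Veh and 81.8 to 148 in ob/ob-Rosi (-1.67 ± 0.22, adjusted p = 0.000522, edgeR). Pparg itself did not pass the test in the first comparison (-0.34, adjusted p = 0.519). In the list of lipid uptake genes, 4 of 21 fell with ob/ob-Veh (Fabp5, Rbp7, Angptl4 and Scarb1, the receptor for high density lipoprotein) and 1 rose. That was Vldlr, a lipoprotein receptor, on 23 UMIs over the 4 ob/ob-Veh libraries against 3 in WT-Veh, a ratio of 18.6 with a counting interval of 5.63 to 96.9. Scarb1 (-0.74) and Vldlr (5.75) were not called without the eWAT WT-Veh replicate 2, nor without the eWAT ob/ob-Veh replicates 1 (-0.85 and 3.96) or 2 (-1.13 and 3.92) or the iWAT WT-Veh replicate 2 (-0.84 and 5.25). Fabp5 and Tcf15 rose and Aqp7 fell with ob/ob-Rosi relative to ob/ob-Veh. Gpihbp1 differed by 1.13 ± 0.36 in that comparison and missed the threshold (adjusted p = 0.0904, edgeR), but was called under 8 alternatives, among them DESeq2 (1.096), no filter (1.17), at least 10 cells (1.21), thinning (1.45) and without the eWAT ob/ob-Rosi replicate 1 (1.39) or the iWAT ob/ob-Rosi replicate 1 (1.27). Tcf15, a transcription factor of fatty acid uptake in heart and fat endothelium, rose by 1.18 ± 0.29 (adjusted p = 0.0381) and was called neither in gated cells under 2 mural UMIs (0.74) nor without the eWAT ob/ob-Veh replicates 1 or 2 (1.13 and 1.27), the eWAT ob/ob-Rosi replicate 2 (1.02) or the iWAT ob/ob-Rosi replicate 2 (1.09). Gpihbp1 differed by -1.27 ± 0.36 with ob/ob-Veh against WT-Veh (adjusted p = 0.0565). It missed the threshold narrowly and was called under 12 alternatives, among them DESeq2 (-1.25), 3 gate UMIs (-1.56), thinning (-1.59) and 5 that leave out 1 library, the eWAT ob/ob-Rosi replicates 1 or 2 (-1.30 and -1.26), the iWAT WT-Veh replicate 1 (-1.53) or either iWAT ob/ob-Rosi replicate (-1.26 in each case). In the same edgeR fit Lpl differed by 0.47 (adjusted p = 0.352) and Cd36 by -0.25 (adjusted p = 0.650), and neither passed.

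**Figure D4:**
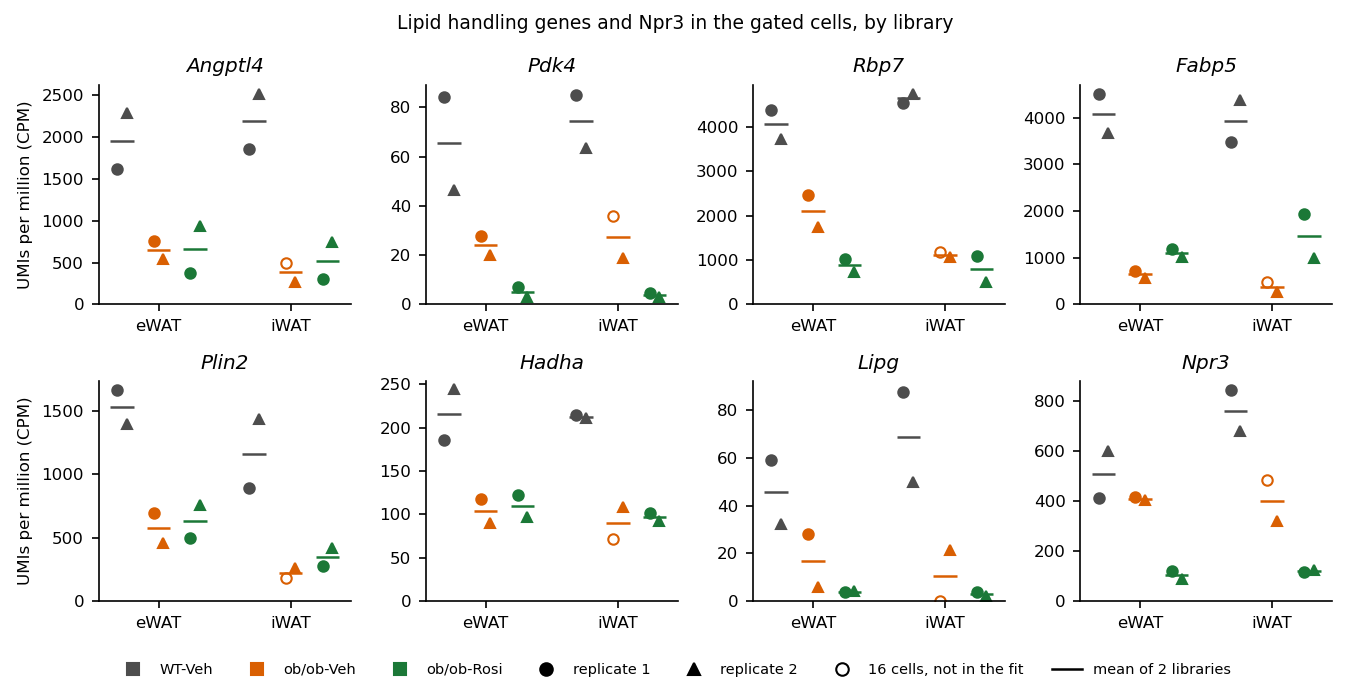
CPM of lipid handling genes and of Npr3 in the gated cells by library, depot and label (circle replicate 1, triangle replicate 2, open circle the library of 16 cells that the fit left out, line the mean of the 2 libraries). Fabp5, Angptl4, Plin2 and Pdk4 are highest in WT-Veh in both depots, and Pdk4 is lowest in ob/ob-Rosi.

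Of the arterial genes outside the gate 8 of 22 rose with ob/ob-Veh against WT-Veh, and of the Notch genes 3 of 19. The share over all genes tested was 2.36%. The genes of the gate stood at 359 to 661 CPM (Sox17), 24.6 to 192 (Gja4) and 0 to 268 (Gja5) per library. Cells were chosen by these 3 genes, so they are given without a test. Fbln5 differed by 0.84 (adjusted p = 0.163, edgeR). Hey1 in iWAT was 12.9 and 35.2 CPM in WT-Veh, 161 and 142 in ob/ob-Veh, and 49.8 and 46.4 in ob/ob-Rosi, and ob/ob-Veh lay above the other labels there and in eWAT, where values stand above. Hey1 rose by 1.68 ± 0.33 (adjusted p = 0.0107), and by 1.90 in gated cells under 2 mural UMIs (adjusted p = 0.0146). It was not called after thinning (0.74) or without the eWAT WT-Veh replicate 2 (2.14) or the eWAT ob/ob-Veh replicate 2 (1.48). With ob/ob-Rosi against ob/ob-Veh it differed by -1.08 ± 0.30 and missed the threshold (adjusted p = 0.0604). This second difference was called when scaled by library size alone (-1.21), without the filter on low counts (-1.04), with libraries of at least 10 cells (-1.09) and without the iWAT WT-Veh replicates 1 or 2 (-1.06 and -1.11) or the iWAT ob/ob-Rosi replicate 1 (-1.12).

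Jag1, a Notch ligand, was 16.9 and 23.2 CPM in eWAT WT-Veh, 34.3 and 69.7 in ob/ob-Veh, and 14.4 and 29.8 in ob/ob-Rosi. In iWAT it was 43.9 and 32.2, 268 and 175, and 46.3 and 36.2. It was highest in ob/ob-Veh in both depots, rose by 1.68 ± 0.32 against WT-Veh (adjusted p = 0.00914, edgeR) and fell by 1.46 ± 0.29 with ob/ob-Rosi against ob/ob-Veh (adjusted p = 0.0146). The first call was lost after thinning (1.52) and without the eWAT WT-Veh replicate 2 (1.91) or the eWAT ob/ob-Veh replicate 2 (1.34), and the second after thinning (-1.37), at 3 or more gate UMIs (-1.52), in cells under 2 mural UMIs (-1.08) and without the eWAT ob/ob-Veh replicate 2 (-1.15). Efnb2 was 101 and 80.5 CPM in eWAT WT-Veh and 217 and 230 in ob/ob-Veh, and 137 and 89.2 against 429 and 249 in iWAT. It rose by 1.18 ± 0.28 (adjusted p = 0.0265), and was called in cells under 2 mural UMIs as well. It was not called at 3 or more gate UMIs (1.11), after thinning (1.36) or without the eWAT WT-Veh replicates 1 or 2 (1.21 and 1.09), the eWAT ob/ob-Veh replicates 1 or 2 (1.15 and 1.14) or the iWAT WT-Veh replicate 2 (1.03).

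Of all genes tested 2.36% rose and 2.09% fell with ob/ob-Veh. By list, 8 of 22 arterial genes (median 0.97) and 3 of 19 Notch genes rose with ob/ob-Veh and 0 fell. The 8 were Hey1, Efnb2, Clu, Igfbp3, Tgfb2, Mecom, Fbln2 and Nrp1, and the 3 were Hey1, Jag1 and Notch3, of which Notch3 is also a mural gene. The mural list in eWAT and the stromal list in iWAT were highest in ob/ob-Veh too. In iWAT the mural list of ob/ob-Veh was also above that of WT-Veh. The part of these lists in the counts was not tested. Without the eWAT WT-Veh replicate 2 the calls of Clu (2.73), Igfbp3 (1.31), Tgfb2 (5.17), Mecom (1.04), Fbln2 (1.18), Nrp1 (0.86) and Notch3 (2.01) were lost. Without the eWAT ob/ob-Veh replicate 2 those of Igfbp3 (1.53), Tgfb2 (1.82), Mecom (1.104), Nrp1 (0.77) and Notch3 (1.71) were lost, and without the iWAT WT-Veh replicate 2 those of Igfbp3 (1.48), Tgfb2 (4.98), Mecom (0.91), Nrp1 (0.77) and Notch3 (1.71). The count of 8 thus rests on all libraries being used. With ob/ob-Rosi against ob/ob-Veh 1 of the 22 fell, Clu. Among the 19 Notch genes Jag1 and the receptor Notch1 fell and the feedback gene Nrarp rose. Over all genes tested 1.45% rose and 1.44% fell in this comparison. Without the eWAT ob/ob-Veh replicate 1 the calls of Clu (-2.11), Notch1 (-0.96) and Nrarp (1.63) were lost, and without its replicate 2 (-1.78, -0.89 and 1.89) and the eWAT ob/ob-Rosi replicate 2 (-1.55, -0.89 and 1.65) as well. Relative to WT-Veh 1 of the 22 arterial genes rose, Fbln2, and Hey1 differed by 0.60 (adjusted p = 0.486).

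Genes of vessel tone and surface also differed. Cav1, the coat protein of caveolae, was 564 and 772 CPM in eWAT WT-Veh, 2029 and 1821 in ob/ob-Veh, and 1741 and 1530 in ob/ob-Rosi. Values in iWAT were 602 and 803, 1840 and 1743, and 2191 and 1264. All ob/ob libraries, treated or not, lay above all WT-Veh libraries, with a rise of 1.31 ± 0.25 in ob/ob-Veh and 1.29 ± 0.23 in ob/ob-Rosi (adjusted p = 0.00914 and 0.00446, edgeR; the second not called after thinning, at 1.05). Ace was 16.9 and 4.47 CPM in eWAT WT-Veh and 36.5 and 23.7 in ob/ob-Veh, and 15.5 and 12.9 against 143 and 135 in iWAT. It rose by 2.66 ± 0.38 (adjusted p = 0.00233; 1.95 and not called without the eWAT WT-Veh replicate 2). Thbd, thrombomodulin, which turns thrombin away from clotting, stood at 43.9 to 69.8 CPM in WT-Veh, 122 to 332 in ob/ob-Veh and 34.2 to 75.5 in ob/ob-Rosi. It rose by 1.76 ± 0.27 and fell by 1.83 ± 0.25 in the 2 comparisons (adjusted p = 0.00259 and 0.00121), neither of which was called after thinning (0.93 and -1.42).

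Npr3, the receptor that clears natriuretic peptides, was 413 and 599 CPM in eWAT WT-Veh, 414 and 404 in ob/ob-Veh, and 119 and 89.9 in ob/ob-Rosi. The iWAT values were 842 and 678, 482 and 320, and 116 and 124. The ob/ob-Rosi libraries lay below all others, with differences of -1.61 ± 0.23 from ob/ob-Veh (adjusted p = 0.00128, edgeR; -0.37 and not called with the gate on Gja4 and Gja5 alone) and of -2.49 ± 0.22 from WT-Veh (adjusted p = 1.64e-05). The smaller difference of ob/ob-Veh from WT-Veh (-0.89 ± 0.23, adjusted p = 0.0423) was not called in cells under 2 mural UMIs (-0.55), after thinning (-0.66), when scaled by library size alone (-0.79) or without any of 5 single libraries. These are the eWAT WT-Veh replicate 2 (-0.71), the eWAT ob/ob-Veh replicates 1 and 2 (-0.94 and -0.89) and the iWAT WT-Veh replicates 1 and 2 (-0.85 and -0.95). With ob/ob-Veh, 2.36% of all genes tested rose and 2.09% fell. The list of vasoactive genes held 4 of 16 that rose with ob/ob-Veh (Ace, Agt, Npr1 and the apelin receptor Aplnr) and 1 that fell. Of these Agt (5.55) and Aplnr (5.83) were not called without the eWAT WT-Veh replicate 2, and Agt (3.00), Aplnr (1.88) and Npr1 (1.21) not without the eWAT ob/ob-Veh replicate 2.

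Among genes outside the lists, Cyp1a1, a target of the aryl hydrocarbon receptor, was 60.1 and 20.8 CPM in eWAT ob/ob-Veh and 357 and 87.6 in iWAT ob/ob-Veh, and at most 0.507 in the other 8 libraries. It had 113 UMIs over the 4 ob/ob-Veh libraries, the one outside the fit included, against 2 in WT-Veh, a ratio of 137 with a counting interval of 37.1 to 1147. Cyp26b1, which breaks down retinoic acid, was 32.2 and 9.64 CPM in eWAT ob/ob-Veh and 125 and 135 in iWAT ob/ob-Veh against at most 1.79 in WT-Veh, and 28.8 and 22.5, and 7.12 and 8.78, in ob/ob-Rosi. It rose by 4.78 ± 0.57 with ob/ob-Veh (edgeR; not called in cells under 2 mural UMIs, at 3.06, or after thinning, at 5.75). At these WT-Veh levels it passed the filter on low counts through the ob/ob libraries, so this difference was fixed in part. Tmem252, a membrane protein gene, was 345 and 226 CPM in eWAT WT-Veh, 57.9 and 34.9 in ob/ob-Veh, and 583 and 957 in ob/ob-Rosi. In iWAT it was 147 and 70.2, 0 and 30.8, and 429 and 631. Genes outside the lists were picked among calls without overlap of the 2 labels compared, so that lack of overlap describes the choice. The 3 labels did not overlap in either depot, and the rise of 4.22 ± 0.41 with ob/ob-Rosi against ob/ob-Veh (adjusted p = 3.09e-05) was called under each alternative that gave it a value.

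**Figure D5:**
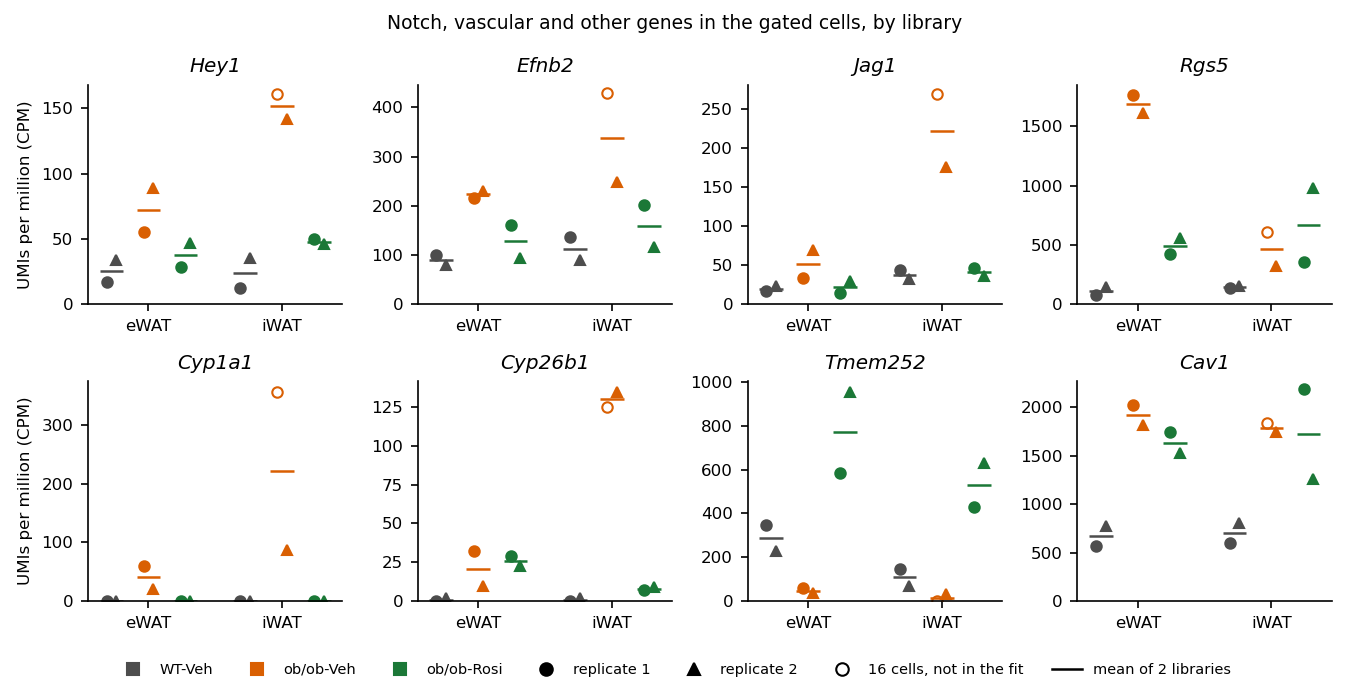
CPM of Notch, vascular and other genes in the gated cells by library, depot and label (circle replicate 1, triangle replicate 2, open circle the library of 16 cells that the fit left out, line the mean of the 2 libraries). Hey1, Jag1 and Cyp1a1 are highest in ob/ob-Veh in both depots, Tmem252 is highest in ob/ob-Rosi, and Cav1 is higher in all ob/ob libraries than in WT-Veh.

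Rpl32, a ribosomal protein gene, was 1618 and 1374 CPM in eWAT WT-Veh, 789 and 964 in ob/ob-Veh, and 1565 and 1622 in ob/ob-Rosi. Values in iWAT were 1071 and 1122, 375 and 594, and 1471 and 1641, so ob/ob-Veh was the lowest label in both depots. It rose by 1.23 ± 0.22 with ob/ob-Rosi against ob/ob-Veh (adjusted p = 0.00691, edgeR). Of 80 tested ribosomal protein genes 8 fell and 0 rose with ob/ob-Veh against WT-Veh (median -0.49). With ob/ob-Rosi against ob/ob-Veh 22 rose and 0 fell (median 0.69). Among all genes tested 2.09% fell in the first comparison and 1.45% rose in the second. The 8 became 0 without the eWAT WT-Veh replicate 2, either eWAT ob/ob-Veh replicate or the iWAT WT-Veh replicate 2 (edgeR, with 29 to 39 lower at an unadjusted p under 0.05), 4 without the eWAT WT-Veh replicate 1, 13 without the eWAT ob/ob-Rosi replicate 1 and 20 without the iWAT WT-Veh replicate 1. The 22 became 2 without either eWAT ob/ob-Veh replicate or the eWAT ob/ob-Rosi replicate 2 and 7 without the iWAT ob/ob-Rosi replicate 2. At 3 gate UMIs the counts were 1 and 7, and in DESeq2 18 and 41. With at least 10 cells per library they were 30 and 44. With the replicate number as a block they were 39 and 53, and 1 gene rose in the first comparison. Both were 0 with the gate on Gja4 and Gja5 alone. With ob/ob-Rosi against WT-Veh the median was 0.24 and Rpl32 was not called. The study singled these genes out from the same libraries, in progenitors, preadipocytes and other cells of the SVF. The list is therefore not independent evidence of its direction. The macrophage list was lowest in ob/ob-Veh in eWAT (2576 and 2490 CPM), and in iWAT the labels overlapped.

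Of 20 interferon genes 4 rose with ob/ob-Veh against WT-Veh (Ifit2, Stat2, Oasl2 and Rsad2) and 3 fell with ob/ob-Rosi against ob/ob-Veh. For this and the next lists, 2.36% of all genes rose and 2.09% fell in the first comparison. In the second 1.45% rose and 1.44% fell. Ifit2 stood at 0 to 21.5 CPM in WT-Veh and 37.8 to 161 in ob/ob-Veh, and rose by 1.42 ± 0.38 (adjusted p = 0.0467, edgeR), but was not called in DESeq2, after thinning (4.10) or without the eWAT WT-Veh replicate 1 (1.27), the eWAT ob/ob-Veh replicates 1 or 2 (1.24 and 1.56) or the iWAT WT-Veh replicates 1 or 2 (1.41 and 1.34). Stat2, Oasl2 and Rsad2 were not called either without the eWAT ob/ob-Veh replicates 1 (1.37, 1.58 and 1.47) or 2 (1.46, 1.31 and 1.04). In the list of insulin and IGF genes 4 of 15 rose with ob/ob-Veh, the kinase subunit gene Pik3r1 and Igfbp4, Igfbp3 (1.68 ± 0.35) and Igfbp5 (1.59 ± 0.36; not called without the eWAT WT-Veh replicates, at 1.46 and 2.32, or the eWAT ob/ob-Veh replicates, at 1.54 and 1.61), secreted binders of insulin-like growth factors, and Igfbp5 fell with ob/ob-Rosi against ob/ob-Veh (-1.84 ± 0.35, adjusted p = 0.0112; -1.88 and not called without the eWAT ob/ob-Veh replicate 2). Igfbp4 and Pik3r1 were not called without the eWAT WT-Veh replicate 2 (0.98 and 1.15) or the eWAT ob/ob-Veh replicates 1 (1.25 and 0.86) or 2 (1.38 and 0.85), nor Pik3r1 in cells under 2 mural UMIs (0.43). Of 25 VEGF and TGF-beta genes 3 rose with ob/ob-Veh. One of them was Smad7, an inhibitor of TGF-beta signalling, at 55.3 to 75.8 CPM in WT-Veh, 114 to 175 in ob/ob-Veh and 35.4 to 58.0 in ob/ob-Rosi. It rose by 1.18 ± 0.27 (adjusted p = 0.0244; not called without the eWAT WT-Veh replicate 2, at 1.04, the eWAT ob/ob-Veh replicates, at 1.04 and 1.25, or the iWAT WT-Veh replicate 2, at 1.06) and fell by 1.61 ± 0.26 with ob/ob-Rosi against ob/ob-Veh (adjusted p = 0.00378). Of 9 endothelial markers 1 fell with ob/ob-Veh, Cldn5, a tight junction gene, which stood at 2672 to 4549 CPM in WT-Veh and 426 to 1710 in ob/ob-Veh, and kept its call without each single library that could be left out.

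Within a depot fewer genes passed. In eWAT 44 genes (0.413%) were called for ob/ob-Veh against WT-Veh and 73 (0.685%) for ob/ob-Rosi relative to ob/ob-Veh, and in iWAT 84 (0.788%) and 46 (0.432%). Both iWAT comparisons use 1 ob/ob-Veh library, which is assumed to vary like the libraries of the other groups. The 44 became 14, 10 and 14 without the eWAT WT-Veh replicate 1 and the eWAT ob/ob-Veh replicates 1 and 2, and 94 and 93 without the iWAT ob/ob-Rosi replicates 1 and 2. The 73 became 16, 15 and 10 without the eWAT ob/ob-Veh replicates and the eWAT ob/ob-Rosi replicate 2, and 119 without either iWAT ob/ob-Rosi replicate. In iWAT the 84 became 38 without the eWAT ob/ob-Veh replicate 2, 10 without the iWAT WT-Veh replicate 2, and 137 and 135 without the iWAT ob/ob-Rosi replicates, and the 46 became 30 and 13 without the eWAT ob/ob-Veh replicates.

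Tests of the difference between depots called 1 gene (0.00938%) for the first comparison and 3 (0.0282%) for the second. Plvap, a protein of the diaphragms of fenestrated endothelium, was the first of these. It stood at 270 and 148 CPM in eWAT WT-Veh, 51.5 and 36.4 in ob/ob-Veh, and 201 and 153 in ob/ob-Rosi. The iWAT values were 124 and 81.4, 375 and 758, and 247 and 115, so ob/ob-Veh was the lowest label in eWAT and the highest in iWAT. Its log2 difference of ob/ob-Veh from WT-Veh was -2.20 in eWAT and 2.76 in iWAT (difference 4.95 ± 0.63, adjusted p = 0.00626, edgeR), and that of ob/ob-Rosi from ob/ob-Veh was 2.06 and -1.88 (adjusted p = 0.0398). Neither depot difference was called in gated cells under 2 mural UMIs (3.62 and -2.36) or after thinning (2.84 and -2.01). The first was also lost without the eWAT WT-Veh replicate 1 (4.61), the eWAT ob/ob-Veh replicate 2 (4.62) or the iWAT WT-Veh replicate 2 (4.66), and the second without either eWAT WT-Veh replicate (-3.94 in each case), the eWAT ob/ob-Veh replicates (-4.13 and -3.58) or the eWAT ob/ob-Rosi replicate 2 (-4.11). Between depots over all labels 9 genes were called (0.0845%), with Mgp, an inhibitor of calcification, lower in iWAT by -1.75 ± 0.28 (adjusted p = 0.0306). Mgp was not called with a gate on Gja4 and Gja5 alone, where the difference was -0.004, at 3 gate UMIs (-1.38), in cells under 2 mural UMIs (-1.81), after thinning (-1.31) or without the eWAT ob/ob-Veh replicate 2 (-1.60), the eWAT ob/ob-Rosi replicate 2 (-1.76) or the iWAT WT-Veh replicate 2 (-1.71).

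Tests of whether an effect differed between the gated and the other blood endothelial cells called 17 of 7807 genes (0.218%) for ob/ob-Veh against WT-Veh and 6 (0.0769%) for ob/ob-Rosi against ob/ob-Veh. The first effect was larger by 2.31 ± 0.28 in the gated cells for Fbln2, an elastic fibre protein (adjusted p = 8.0e-05, edgeR), by 2.73 ± 0.32 for Mgp (adjusted p = 7.4e-05) and by 2.75 ± 0.45 for the collagen Col15a1 (adjusted p = 0.00431). Larger here is the log2 change in the gated cells minus that in the others, which need not be a rise in the gated cells. Fbln2 in the gated cells was 118 and 39.4 CPM in eWAT WT-Veh, 144 and 123 in ob/ob-Veh, and 223 and 241 in ob/ob-Rosi. In iWAT it was 31.0 and 31.9, 125 and 161, and 183 and 198. Mgp in the gated cells of eWAT was 548 and 206 CPM in WT-Veh, 152 and 286 in ob/ob-Veh, and 529 and 483 in ob/ob-Rosi. In the other cells of eWAT it was 1189 and 1109, 88.0 and 106, and 733 and 775, so these changed more. Fbln2 and Col15a1 fell with ob/ob-Veh in the other cells of eWAT. The second effect was lower in the gated cells for Mgp (-2.33, adjusted p = 0.000338), Tagln and Fn1. In cells under 2 mural UMIs neither Mgp in the first (1.98) nor Fn1 in the second (-1.26) was called, and Fn1 was not called after thinning either (-0.79). Col15a1 was not called in DESeq2, in cells under 2 mural UMIs (1.12), after thinning (0.09) or without the eWAT WT-Veh replicate 2 (1.99). In cells under 2 mural UMIs 1 and 2 genes were called in these tests and after thinning 4 and 3, and without the iWAT WT-Veh replicate 2 the numbers were 233 and 22. The first was 28 and 2 without the eWAT WT-Veh replicates 1 and 2, and 44 and 11 without the eWAT ob/ob-Veh replicates 1 and 2. The second was 11 and 10 without these, and 17 without the iWAT WT-Veh replicate 1.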

How the data were processed

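The authors made 10x Genomics 3-prime libraries, processed them with bcl2fastq 2.19.1.403 and Cell Ranger 3.0.2 on mm10 (GRCm38), and deposited UMI counts of 31053 genes per barcode without normalization. In the iWAT counts, barcodes past 22000 UMIs or 25% mitochondrial UMIs had already been taken out. The members and gene lists were chosen with earlier results of these data known. The genes of the gate entered no test that split cells on them. UMIs of the gated cells were summed per library and tested with edgeR 4.0.16 in R 4.3.3 (TMM, filterByExpr, quasi-likelihood test, 5 residual degrees of freedom in the comparison of labels, calls at a Benjamini-Hochberg adjusted p up to 0.05 and 1.1-fold), without a replicate block. Differences between depots and between cell sets were fitted as interactions. Shares were tested by exact permutation within depots (scipy 1.17.1, numpy 2.4.6, pandas 2.3.3, Python 3.11.15), and exact 95% binomial intervals were given. Depth sets precision: the gated cells of a library held 55971 to 3944088 UMIs. P-values measure the spread between libraries. Named genes are the gate and marker genes, per comparison the 8 called genes with the largest change in each direction at 50 CPM or more without overlap of labels, and up to 4 called genes per list and direction, from which the text gives a selection. Other members of a list, and genes set beside them, were named after their values were seen. The fits were repeated with DESeq2 1.42.0, with library sizes in place of TMM, with TMM that leaves out ribosomal and mitochondrial genes, with all genes unfiltered, and with at least 10 cells per library, 3 gate UMIs, cells under 2 mural UMIs, cells thinned to 2000 UMIs, a replicate block, each depot alone and each library left out. A gate on Gja4 and Gja5 alone, and the replicate block with at least 10 cells, were chosen after seeing the data. The scripts were tested on simulated data. A comparison of the gated cells with Ackr1 cells was not fitted, since a library held 0 to 6 of these.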

Additional observations from a re-analysis of the deposited data

Results flagged for a closer look

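The difference between depots was called for 1 gene with ob/ob-Veh against WT-Veh, Plvap (4.95 on the log2 scale, iWAT minus eWAT, adjusted p = 0.00626 in edgeR), and for 3 genes with ob/ob-Rosi against ob/ob-Veh. These were Cfd (6.74, adjusted p = 0.0398), Plvap (-3.93, adjusted p = 0.0398) and Car3 (4.99, adjusted p = 0.0414). Cfd was 0 and 0.864 CPM in eWAT ob/ob-Rosi, so its size there depends on the prior count of the fit. The difference for Cfd was not called in DESeq2 (6.82), at 3 gate UMIs (5.84), in cells under 2 mural UMIs (6.36), after thinning (5.42) or without the eWAT WT-Veh replicates 1 or 2 (6.75 in each case), the eWAT ob/ob-Veh replicates 1 or 2 (6.31 and 7.18) or the eWAT ob/ob-Rosi replicate 2 (10.12). That for Car3 was not called in DESeq2 (5.23), in cells under 2 mural UMIs (3.62), after thinning (4.67) or without the eWAT WT-Veh replicates 1 or 2 (4.99 in each case), the eWAT ob/ob-Veh replicates 1 or 2 (4.77 and 5.30), the eWAT ob/ob-Rosi replicate 2 (11.18) or the iWAT WT-Veh replicate 2 (4.98). The difference between the gated and the other blood endothelial cells was called for 17 genes with ob/ob-Veh against WT-Veh and for 6 genes with ob/ob-Rosi against ob/ob-Veh. All of these were tested by interaction terms. The iWAT ob/ob-Veh group enters them with 1 library.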

How the results depend on the processing

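Counts of called genes moved by more than 1.5 times under many alternatives, and directions mostly stayed. The deviations of same-numbered libraries from their group means had correlations of 0.0221 to 0.677 over 3525 genes. The highest was between eWAT and iWAT ob/ob-Rosi. The correlation was above 0 in all pairs of groups and above 0.1 in 12 of 15. Since it was not above 0.1 in every pair and no label ties the numbers to a shared batch, the numbers were not taken as pairs and the replicate block is an alternative only. With the replicate block Hey1 (-1.05), Fbln5 (-0.94), Rbp7 (-0.89), Angptl4 (0.72) and Gpihbp1 (1.29) gained a call in the rosiglitazone effect, and Fbln5 (1.01) and Gpihbp1 (-1.40) in the ob/ob effect. With the block and at least 10 cells Fabp4 (0.61) gained a call in the rosiglitazone effect. For ob/ob-Veh against WT-Veh the total of 475 became 928 without the filter, 883 with libraries of at least 10 cells, 287 at 3 gate UMIs, 136 after thinning, 1708 with the replicate block, 1649 with the replicate block and 10 cells, and 19 with a gate on Gja4 and Gja5 alone. The total of 308 for the rosiglitazone effect became, in the same order, 839, 755, 174, 176, 1883, 1918 and 11. For ob/ob-Rosi against WT-Veh 304 became 546 without the filter, 60 after thinning, 781 and 694 with the replicate block, and 14 with the gate on Gja4 and Gja5. For the eWAT ob/ob effect 44 became 99 in DESeq2, 259 without the filter, 67 at 10 cells, 12 at 3 gate UMIs, 28 under 2 mural UMIs, 11 after thinning, 129 with eWAT alone, 417 and 363 with the replicate block, and 3 with the connexin gate. For the eWAT rosiglitazone effect 73 became 312 without the filter, 25 under 2 mural UMIs, 15 after thinning, 152 with eWAT alone, 559 and 458 with the replicate block, and 8 with the connexin gate. For the iWAT ob/ob effect 84 became 127 scaled by library size alone, 380 without the filter, 325 at 10 cells, 45 under 2 mural UMIs, 7 after thinning, 48 with iWAT alone, 937 and 1035 with the replicate block, and 16 with the connexin gate. For the iWAT rosiglitazone effect 46 became 96 in DESeq2, 218 without the filter, 203 at 10 cells, 11 under 2 mural UMIs and after thinning, 24 with iWAT alone, 862 and 1098 with the replicate block, and 17 with the connexin gate.

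The depot difference of the ob/ob effect, 1 gene, became 5 in DESeq2, 2 by library size, at 10 cells, at 3 gate UMIs and with the connexin gate, 42 without the filter, 47 and 46 with the replicate block, and 0 under 2 mural UMIs and after thinning. Under 2 mural UMIs 241 genes had an unadjusted p under 0.05. That of the rosiglitazone effect, 3 genes, became 5 in DESeq2, at 10 cells and at 3 gate UMIs, 38 without the filter, 45 and 41 with the replicate block, 6 with the connexin gate, and 0 under 2 mural UMIs (189 at an unadjusted p under 0.05) and after thinning. For iWAT against eWAT 9 became 111 without the filter, 5 at 3 gate UMIs, 1 under 2 mural UMIs and after thinning, 90 and 103 with the replicate block, and 2 with the connexin gate. For gated against other cells 2265 became 407 after thinning. The 17 differences between cell sets in the ob/ob effect became 56 without the filter, 26 at 3 gate UMIs, 1 under 2 mural UMIs and 4 after thinning, and the 6 in the rosiglitazone effect 3 in DESeq2, 39, 12 at 10 cells, 16, 2 and 3. The 190 calls for the Gja5 cells became 113 in DESeq2, 306 without the filter and 116 at 3 gate UMIs.

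With 1 library left out at a time the ranges were 96 to 629, 58 to 524 and 63 to 297 for the 3 comparisons over both depots, 10 to 94 and 10 to 119 in eWAT, 10 to 137 and 13 to 49 in iWAT, 0 to 4 and 0 to 7 for the depot differences, 0 to 36 for iWAT against eWAT, 1888 to 2430 for gated against other cells, 2 to 233 and 5 to 22 for the differences between cell sets, 121 to 190 for the Gja5 cells, and p = 0.289 to 0.949 in the exact permutation test of the share. Without the iWAT ob/ob-Veh replicate 2 no value could be had for its group. Fewer genes pass the filter in the smaller sums (7381 tested under 2 mural UMIs against 10657), and fewer UMIs remain after thinning. Otherwise the cause was not tested.

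Over the named genes and alternatives 8265 values stayed on the same side of the threshold in the same direction, 1333 lost their call, 80 gained one and 17 moved uncalled across 0. Called values changed sign in 9 cases. With the connexin gate these were Fasn (1.69 in the rosiglitazone and -1.08 in the ob/ob effect), Fbn1 (-0.12 in the ob/ob effect) and Pck1 (-2.65 in the iWAT ob/ob effect). After thinning they were Gbp2 (-0.13), Rsad2 (-0.022) and Tcf15 (-0.0072) in the gated against the other cells and Trem2 (-0.26) in the difference between cell sets, and under 2 mural UMIs Rgs5 (-0.076) in the gated against the other cells. The smallest library of the fit held 118696 UMIs of gated cells, so a gene under about 10 CPM rests on 1 or a few UMIs there.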
